A study of Mus musculus with 20 samples.

Results

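Of the 20 striatal arrays in the series, 10 came from mice that had received a neural stem cell (NSC) graft, and 9 of those 10 mice belonged to litter 4 or litter 6. The present comparison set the 4 grafted mice labelled litter 4 (ASO-NSC 73 and 75, WT-NSC 70 and 74) against the 5 grafted mice labelled litter 6 (ASO-NSC 56, 57 and 59, WT-NSC 54 and 58), with genotype as a covariate. It asks how far the expression profile of a grafted striatum differed between litters. The mice were chosen by their litter and treatment labels only, and no measured value entered the choice.

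The series profiled total RNA of the microdissected striatum on Affymetrix Mouse Gene ST arrays, 1 array per mouse and 5 mice in each of the groups ASO-NSC, WT-NSC, ASO-Veh and WT-Veh. The ASO genotype is a transgene for human wild-type α-synuclein driven by the PDGF-β promoter (line D), and WT mice are littermates that lack it. All mice were on the C57B6/J background and were labelled 12 months old. NSC mice had received haplotype-matched mouse neural stem cells that carry green fluorescent protein, grown from hippocampus and cortex of newborn transgenic pups, by injection into the striatum, and Veh mice had received saline by the same route. Behavioural testing began about a month after the injection, and the tissue was taken after that testing. The remaining grafted mouse, WT-NSC 53, was from litter 3, and the 10 Veh mice were from litters 1, 3 and 5. No Veh mouse was from litter 4 or litter 6, so in these data the graft and the litter of a mouse cannot be told apart whenever NSC mice of 1 litter are set against Veh mice. Neither the green fluorescent protein nor the human transgene was among the rows analysed here, and the amount of surviving graft in each mouse was not measured.

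Mice of 1 litter share parents, birth date and early rearing, so a litter is a unit in which unmeasured conditions move together. A graft of foreign cells into the brain is known to activate microglia, the resident macrophages of the brain, and astrocytes, which respond with intermediate filament and protease inhibitor genes. It can also start an interferon response. Type I interferons act mainly through a promoter element called ISRE, whereas interferon-γ acts mainly through an element called GAS, and the genes behind these elements encode antiviral proteins, antigen presentation proteins and a family of large GTPases.

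Promoters of 5 interferon-induced genes that the comparison turns on are shown here. The first 3, of Rsad2, Ifit1 and Isg15, belong to genes whose values were higher in the litter 4 mice, and the other 2, of the interferon-inducible GTPase genes Igtp and Irgm2, to genes whose values were not. Each sequence is the 150 bases before the annotated gene start, 5′ to 3′ on the strand of the gene, from RefSeq (assembly GRCm38.p6), and the capitals mark matches to GAAA, any 2 bases and GAAA again (ISRE) or to TTCNNNGAA (GAS), read on either strand.
Rsad2, chr12:26456453-26456602, minus strand: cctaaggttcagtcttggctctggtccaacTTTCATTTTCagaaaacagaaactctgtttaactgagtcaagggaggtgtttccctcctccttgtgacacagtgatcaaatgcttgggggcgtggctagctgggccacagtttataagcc
Ifit1, chr19:34640739-34640888, plus strand: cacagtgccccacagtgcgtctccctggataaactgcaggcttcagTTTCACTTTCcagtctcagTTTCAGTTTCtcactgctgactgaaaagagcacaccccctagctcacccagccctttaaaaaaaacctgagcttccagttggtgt
Isg15, chr4:156200819-156200968, minus strand: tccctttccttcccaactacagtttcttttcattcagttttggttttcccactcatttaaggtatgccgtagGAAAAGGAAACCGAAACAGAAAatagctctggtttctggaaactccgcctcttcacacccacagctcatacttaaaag
Igtp, chr11:58199406-58199555, plus strand: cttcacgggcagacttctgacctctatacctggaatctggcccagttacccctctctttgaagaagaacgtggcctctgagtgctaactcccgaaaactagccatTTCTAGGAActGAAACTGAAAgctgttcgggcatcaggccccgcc
Irgm2, chr11:58214827-58214976, plus strand: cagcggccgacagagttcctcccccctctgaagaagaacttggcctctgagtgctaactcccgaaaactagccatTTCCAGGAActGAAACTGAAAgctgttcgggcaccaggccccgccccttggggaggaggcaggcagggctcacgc
The first 3 promoters held ISRE matches alone, 3 overlapping ones in Isg15, and the 2 GTPase promoters held a GAS match next to an ISRE match. Other members of the group went the other way. Irgm1, with a lower mean in litter 4 (-0.13 log2 units), held 2 ISRE matches and no GAS match. Isg20, higher in litter 4 (0.27), held a GAS match and no ISRE match. Without WT-NSC 58 of litter 6, Igtp and Irgm2 were also higher in litter 4 (0.16 and 0.16). Over the 250 bases before the start, an ISRE match was present in 16 of the 32 interferon-induced genes with a promoter entry (50%) and in 577 of 16918 measured genes with one (3.41%). A GAS match was present in 8 of those 32 genes (25%), against 7.81% of all measured genes. Among the interferon-induced genes with an unadjusted p under 0.05 for litter 4 over litter 6, 10 of 13 had a promoter entry, with an ISRE match in 4 and a GAS match in 1. Of the 5 interferon-induced genes with a lower mean in litter 4, 3 had an entry, with an ISRE match in 3 and a GAS match in 2. These matches describe letters in the sequence and were not tested as binding sites.

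The labels were checked against the arrays before the groups were compared. Sex was part of the litter difference by design, since all 4 litter 4 mice were labelled female and all 5 litter 6 mice male, so litter and labelled sex cannot be told apart. Xist, the RNA that silences 1 X chromosome in females, measured 12.16 and 11.88 in ASO-NSC 73 and 75 and 11.76 and 12.01 in WT-NSC 70 and 74 of litter 4, against 6.10, 5.37 and 5.94 in ASO-NSC 56, 57 and 59 and 6.00 in WT-NSC 58 of litter 6 (log2 scale, as all levels here). WT-NSC 54 of litter 6, labelled male, measured 11.94 for Xist and 4.13 for the Y-linked histone demethylase gene Kdm5d, which was at 8.38 to 8.62 in the other 4 litter 6 mice. The library labelled WT-NSC 54 thus had the female pattern, and results are given with and without it. In all, sex genes went against the labelled sex on 5 of the 20 arrays, of which the other 4 were Veh arrays. The first principal component of 22538 rows off the X and Y chromosomes, 25.2% of their variance, placed ASO-NSC 73 and 75 and WT-NSC 70 and 74 at 13.5, 3.26, -2.22 and 11.5, against -4.02, -4.14, -23.7, 13.9 and -7.99 for ASO-NSC 56, 57 and 59 and WT-NSC 54 and 58. WT-NSC 54 was thus the only litter 6 mouse on the side of most litter 4 mice.

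**Figure D1:**
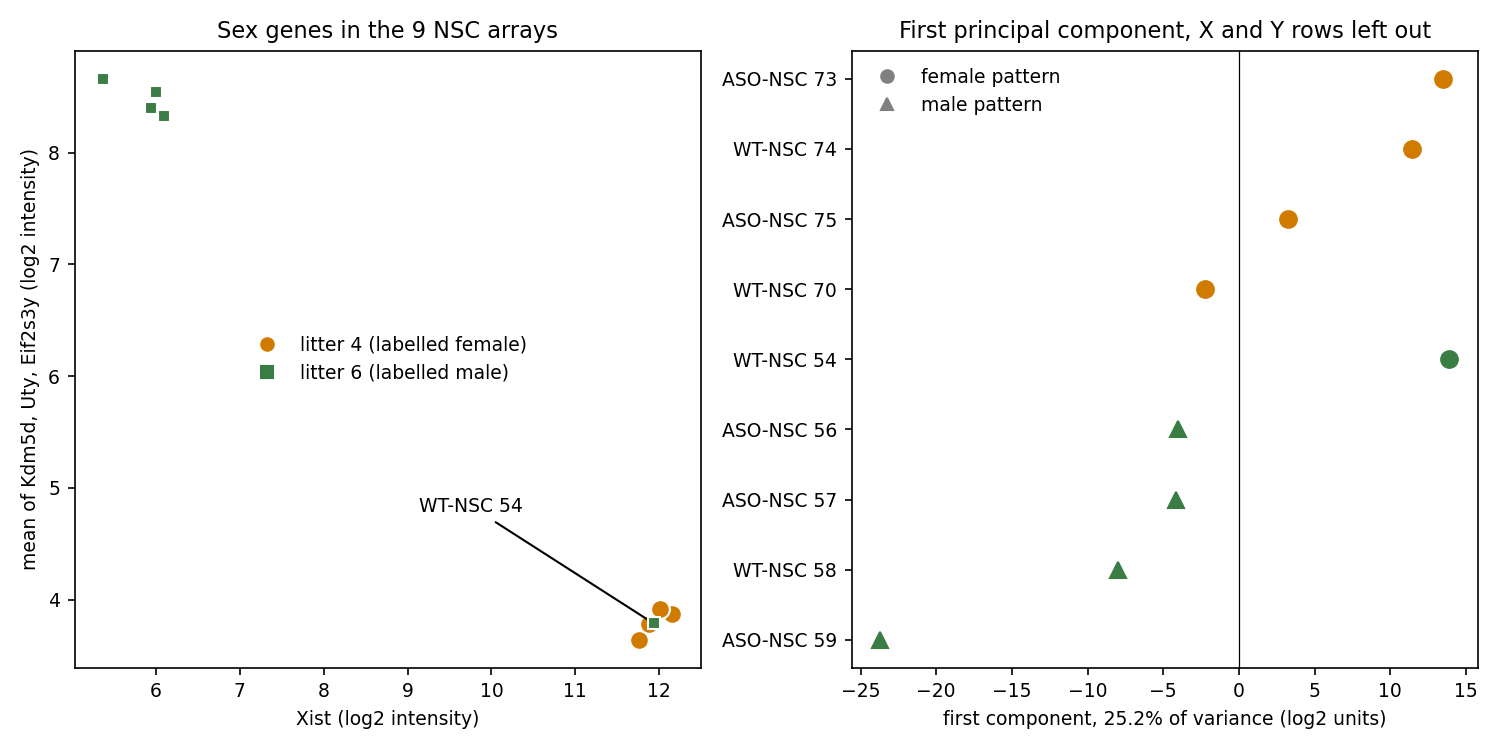
Left, mean log2 level of 3 Y-linked genes (Kdm5d, Uty and Eif2s3y) against the log2 level of Xist in the 9 grafted mice (orange circles litter 4, green squares litter 6); right, the first principal component of each mouse in log2 units, litter 4 above litter 6, with circles for the female and triangles for the male pattern of sex genes. WT-NSC 54 sits at 11.94 for Xist among the litter 4 mice and at 13.9 on the component, and ASO-NSC 59 lies at -23.7.

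Mean levels of striatal spiny neuron genes were above the array median in all 9 mice. The mean of 6 measured genes of D2 spiny neurons, which project to the globus pallidus, was 9.83 to 10.01 in litter 4 and 9.38 to 10.13 in litter 6, the lowest in ASO-NSC 59. Its means of D2, D1 and shared spiny neuron genes were 9.38, 8.62 and 9.95. They lay below every Veh mouse, whose lowest means were 9.87, 8.99 and 10.42. That mouse also had the highest mean of septal and thalamic neuron genes (8.89, against 7.92 to 8.43 in the other 8 mice). The authors left this mouse out of their own analysis as an outlier. It is kept here because the litter labels include it, and without it the litter comparison also gave 0 rows at an adjusted p under 0.05 in limma, the interferon-induced median was 0.24 and the counts against Veh were 43 for litter 4 and 345 for litter 6. Choroid plexus genes, which mark tissue of the ventricle, averaged 6.35 in ASO-NSC 73, 6.51 in ASO-NSC 56 and 6.60 in WT-NSC 54, and 7.22 to 7.43 in the other 6 mice, so both litters held mice of both kinds. RNA integrity numbers were 9.3 to 9.6 in litter 4 and 9.2 to 9.5 in litter 6 (means 9.45 and 9.36, exact permutation test over 126 splits, two-sided p = 0.46, where the smallest p the design allows is 0.0159). The part of these tissue and quality values in the results below was not tested.

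Across all 23521 rows with exactly 1 gene symbol, 0 differed between litter 4 and litter 6 at a Benjamini-Hochberg adjusted p under 0.05 in limma (0% of rows called, smallest adjusted p 0.416). At an unadjusted p under 0.05, 813 rows were higher (3.46%) and 903 lower (3.84%) in litter 4. The 4 litter 4 arrays lay entirely above the 5 litter 6 arrays in 231 rows (0.982%) and entirely below them in 320 rows (1.36%). The difference was small for most genes, with a median absolute difference of 0.07 log2 units, and it exceeded 0.5 in 91 rows (0.387%). The median 95% confidence interval reached 0.18 log2 units to each side, so differences of the usual size here were within the error of 4 against 5 mice. Left without WT-NSC 54, the comparison called 4 rows, all of them sex genes (Xist at 6.10 log2 units, and Kdm5d, Eif2s3y and Uty at -4.71, -4.47 and -4.88, litter 4 minus litter 6).

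The other factors measured on the same arrays also gave 0 called rows in limma (0%). ASO-NSC against WT-NSC within the litters had 905 rows at an unadjusted p under 0.05 (3.85% of all rows). The difference of the litter contrast between ASO and WT had 960 (4.08%). In mice with no graft, the Veh mice of litter 1 against those of litter 5 had 878 such rows (3.73%), fewer than the 1716 of the grafted litters (7.3%). The litter 1 and litter 5 comparison had 4 mice on each side and its own mix of sexes, and the source of this difference in counts was not tested. The row closest to a genotype call was Rarres1, a retinoic acid responder gene, which measured 5.38, 5.67, 5.93, 6.00 and 6.02 in ASO-NSC 73, 75, 56, 57 and 59, against 5.01, 4.85, 5.11 and 5.14 in WT-NSC 70, 74, 54 and 58 (0.74 log2 units, adjusted p = 0.113).

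Among the gene groups examined, interferon-induced genes had the most members higher in litter 4 at an unadjusted p under 0.05. The group held 45 measured genes, of which 40 had a higher mean in litter 4 and 5 a lower one, with 13 higher at an unadjusted p under 0.05 (3.46% of all rows) and 0 lower. The median difference over the group was 0.22 log2 units, beside -0.01 over all rows. Of the 45 genes, 6 were higher in litter 4 without overlap between the litters, beside 0.982% of all rows. None passed the adjusted threshold. The group mean of each mouse was 6.75 and 7.10 in ASO-NSC 73 and 75 and 6.93 and 6.82 in WT-NSC 70 and 74 of litter 4, against 6.44, 6.68 and 6.40 in ASO-NSC 56, 57 and 59 and 6.51 and 7.15 in WT-NSC 54 and 58 of litter 6. All litter 6 mice but WT-NSC 58 thus lay below every litter 4 mouse, and WT-NSC 58 lay above all of them. The grafted mouse of litter 3, WT-NSC 53, was higher still, at 7.30. The Veh mice spanned 6.04 to 6.40, and every grafted mouse of either litter lay above that range, ASO-NSC 59 by so little that the rounded values are equal.

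**Figure D2:**
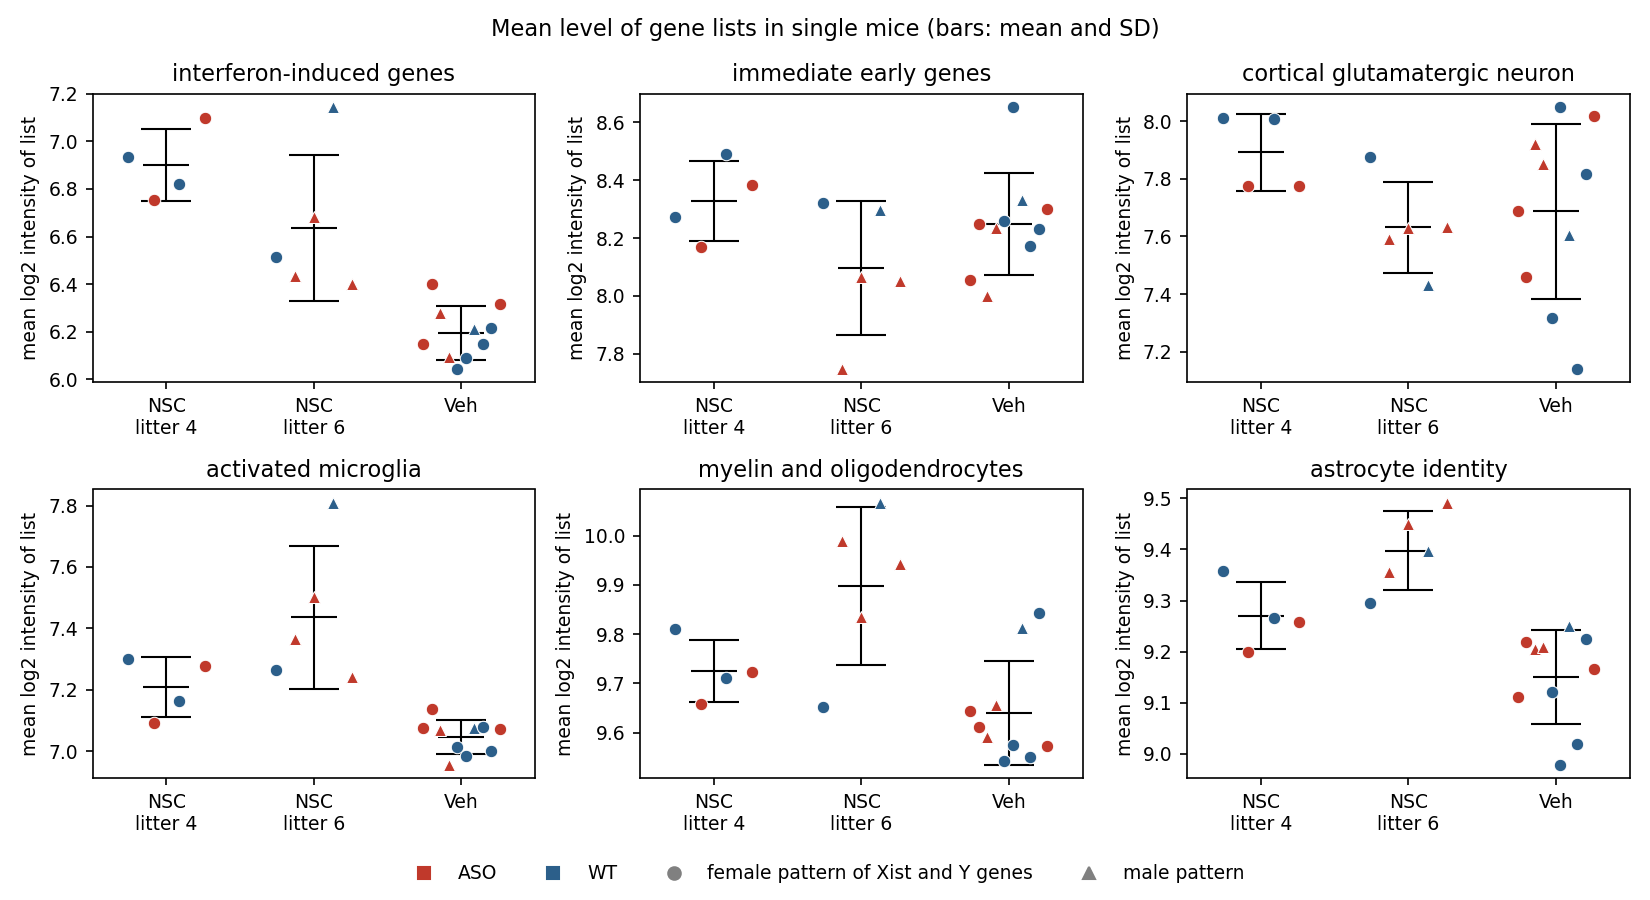
Mean log2 level of 6 gene lists in each mouse (points; red ASO, blue WT, circles female pattern, triangles male pattern), for NSC mice of litter 4, NSC mice of litter 6 and Veh mice from left to right, with bars for the mean and SD. For interferon-induced genes the litter 4 mice span 6.75 to 7.10, the litter 6 mice 6.40 to 7.15 and the Veh mice 6.04 to 6.40.

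The clearest separation among interferon genes was in Rsad2, which encodes viperin, an antiviral enzyme. It measured 7.05 and 7.04 in ASO-NSC 73 and 75 and 6.98 in both WT-NSC 70 and 74 of litter 4, against 6.56, 6.70 and 6.48 in ASO-NSC 56, 57 and 59 and 6.57 and 6.73 in WT-NSC 54 and 58 of litter 6. The litters did not overlap, and the difference was 0.40 ± 0.069 log2 units (SE; 95% confidence interval 0.25 to 0.55; unadjusted p = 0.000163, adjusted p = 0.61). Every litter 6 value except that of ASO-NSC 59 was above the Veh range of 6.19 to 6.49.

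Usp18, which encodes the protease that removes ISG15 from proteins and damps the type I interferon receptor, followed with 8.04, 8.60, 8.35 and 8.30 in ASO-NSC 73 and 75 and WT-NSC 70 and 74, against 7.29, 7.60, 7.14, 7.54 and 7.94 in ASO-NSC 56, 57 and 59 and WT-NSC 54 and 58. All litter 4 values were again above all litter 6 values, by 0.80 ± 0.15 log2 units on average (SE; 1.74-fold; adjusted p = 0.61). Ifit1, whose product binds viral RNA, measured 8.46, 9.36, 8.48 and 8.37 in litter 4 against 7.66, 7.79, 7.44, 7.82 and 8.25 in litter 6, mice in the same order (0.87 ± 0.22 log2 units, SE; 1.83-fold; adjusted p = 0.61). Isg15, the ubiquitin-like modifier itself, was at 5.33, 5.37, 5.58 and 5.63 in litter 4 and at 5.17, 5.17, 4.91, 5.10 and 5.16 in litter 6, again without overlap (0.36 ± 0.075, SE). Unlike the 3 genes before it, its litter 6 values all lay within the Veh range of 4.91 to 5.41. So did the litter 4 values of ASO-NSC 73 and 75. Isg15 was not called against Veh in litter 4 (0.34, adjusted p = 0.129 in limma) or in litter 6 (-0.03, adjusted p = 0.826).

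Among the sensors and regulators of the response, Irf7, the transcription factor that amplifies type I interferon, had a litter 4 minus litter 6 difference of 0.64, and Irf9, a transcription factor of the type I interferon response, one of 0.40. The RNA sensor genes Ddx58 and Ifih1 had differences of 0.44 and 0.37. Antiviral effectors lay in the same direction, with 0.66 for Oasl2, 0.53 for Mx2, 0.40 for Oas2 and 0.27 for Isg20, and so did Cxcl10, a chemokine that attracts T cells, with 0.63. Irf7 was at 6.97, 7.64, 7.34 and 7.18 in litter 4 and at 6.34, 6.63, 6.35, 6.78 and 7.01 in litter 6, so a single litter 6 mouse, WT-NSC 58, was above the lowest litter 4 mouse. Isg20 and Oas2 had no overlap between the litters. The adjusted p-values of these genes ran from 0.61 to 0.681 in limma.

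**Figure D3:**
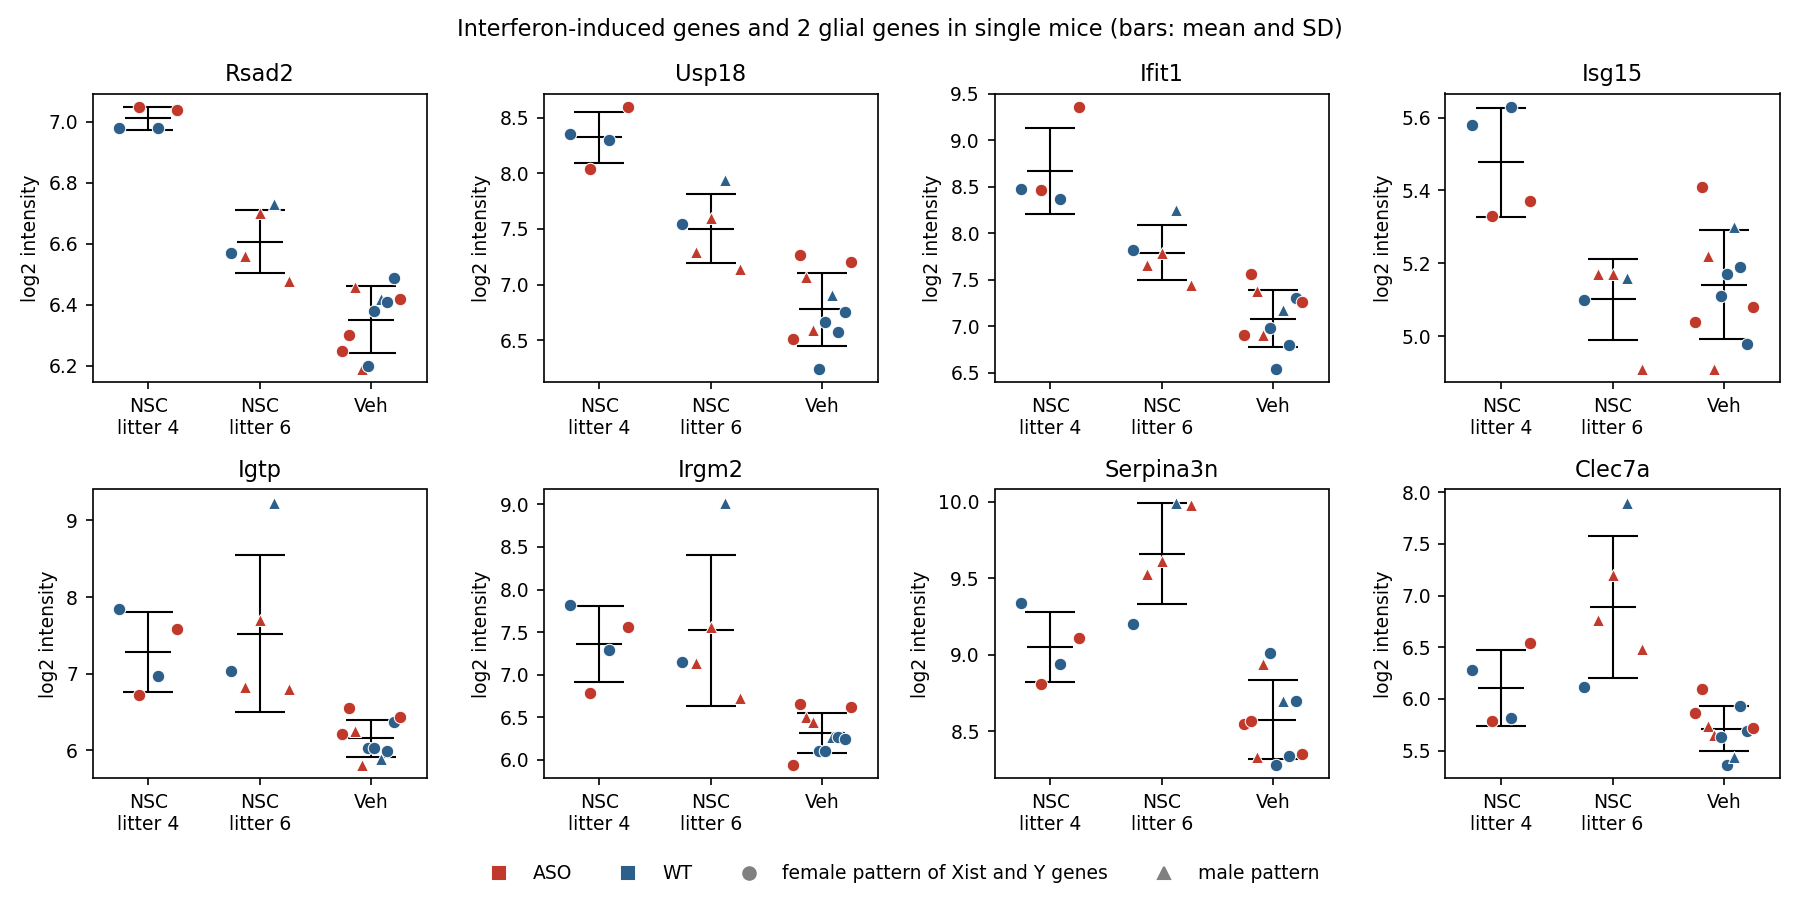
Log2 level of 8 genes in each mouse (points; red ASO, blue WT, circles female pattern, triangles male pattern), NSC mice of litter 4, NSC mice of litter 6 and Veh mice from left to right, with bars for mean and SD. Rsad2, Usp18, Ifit1 and Isg15 do not overlap between the litters, Igtp and Irgm2 reach 9.23 and 9.02 in WT-NSC 58 of litter 6, and Serpina3n and Clec7a are lower on average in litter 4.

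The immunity-related GTPase genes Igtp, Irgm1, Irgm2 and Iigp1 had lower means in litter 4. Other interferon-inducible GTPase genes had higher means, with 0.44 for Gbp3, 0.53 for Mx2 and 0.31 for Mx1. The differences were small in Gbp4, Gbp5, Gbp6 and Gbp7, at 0.10, 0.07, 0.01 and 0.09. Igtp measured 6.72, 7.58, 7.85 and 6.97 in ASO-NSC 73 and 75 and WT-NSC 70 and 74 of litter 4, against 6.83, 7.70, 6.80, 7.04 and 9.23 in ASO-NSC 56, 57 and 59 and WT-NSC 54 and 58 of litter 6. The litters overlapped throughout, and WT-NSC 58 stood apart from the next litter 6 mouse, ASO-NSC 57. Irgm2 measured 6.78, 7.56, 7.82 and 7.29 in litter 4 and 7.14, 7.56, 6.73, 7.15 and 9.02 in litter 6, and Iigp1 reached 8.49 in WT-NSC 58, against 6.07 to 7.04 in the other 8 grafted mice of both litters. The differences of -0.31, -0.23 and -0.23 log2 units for Igtp, Irgm2 and Iigp1 had 95% confidence intervals of -1.26 to 0.65, -1.02 to 0.56 and -1.14 to 0.68, and without WT-NSC 58 they were 0.16, 0.16 and 0.25. WT-NSC 53 of litter 3 was close to WT-NSC 58 in these genes, at 9.14 for Igtp and 8.90 for Irgm2.

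By genotype, the median difference of the interferon group was 0.34 log2 units between the 2 litter 4 and 3 litter 6 ASO-NSC mice and 0.07 between the 2 and 2 WT-NSC mice. In Ifit1 the difference was 1.28 in ASO-NSC mice and 0.39 in WT-NSC mice, with an unadjusted p of 0.0337 for the difference of the 2, and 0 genes passed that test after adjustment. The group median was 0.35 without WT-NSC 58 and 0.12 without ASO-NSC 75, the mice whose omission moved it most, and it was 0.21 without WT-NSC 54. With the sex shown by the genes as a covariate it was 0.51, a value for which the litter contrast rests on WT-NSC 54, the single female-pattern mouse of litter 6.

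Genes of activated microglia ran the other way. Of 14 measured, 13 had a lower mean in litter 4, 4 of them at an unadjusted p under 0.05 (3.84% of all rows), and the median difference was -0.18. Clec7a, a receptor for fungal glucans that marks activated microglia, measured 5.79, 6.54, 6.28 and 5.82 in ASO-NSC 73 and 75 and WT-NSC 70 and 74, against 6.76, 7.20, 6.48, 6.12 and 7.90 in ASO-NSC 56, 57 and 59 and WT-NSC 54 and 58. ASO-NSC 59 and WT-NSC 54 of litter 6 fell inside the litter 4 range, and the difference was -0.79 ± 0.33 (SE; adjusted p = 0.663). Cd9, a tetraspanin, had no overlap, at 7.75, 7.95, 7.90 and 7.81 in litter 4 and 8.07, 8.22, 8.25, 8.03 and 8.44 in litter 6 (-0.35 ± 0.091, SE; adjusted p = 0.61), and Lyz2, which encodes the lysozyme of macrophages, differed by -0.66. Microglial identity genes, 14 measured, differed less, with a median of -0.05. In whole tissue, fewer cells of a type and less RNA per cell cannot be told apart.

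Antigen presentation and complement were divided. The 8 measured MHC class II genes all had a lower mean in litter 4, with a median difference of -0.25, but their mean was 7.60 in WT-NSC 58 and 6.24 to 6.77 in the other 8 mice, and without WT-NSC 58 the median was -0.03. Cd3g, a subunit of the T cell receptor complex, was at 5.97 in WT-NSC 58 and at 4.01 to 4.53 in the other 8, while the 13 measured T and cytotoxic lymphocyte genes had a median difference of -0.04. MHC class I and peptide loading genes showed a median of -0.03 over 15 genes and 0 of them at an unadjusted p under 0.05. Complement genes had a median of -0.11 over 13 genes, which was 0.04 without WT-NSC 58. C4b, a complement component, was at 9.31, 9.77, 9.54 and 9.58 in litter 4 and 9.31, 9.62, 9.44, 9.36 and 10.17 in litter 6, a difference of -0.05 with a 95% confidence interval of -0.41 to 0.32.

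Astrocyte genes were lower in litter 4 in most members, again without an adjusted call. All 14 measured identity genes had a lower mean (median -0.10, 3 at an unadjusted p under 0.05, beside 3.84% of all rows). Among them was Gja1, the gap junction protein connexin 43, whose litters did not overlap. It was at 10.40, 10.47, 10.50 and 10.39 in litter 4 and 10.68, 10.80, 10.84, 10.50 and 10.62 in litter 6. The highest litter 4 and the lowest litter 6 value are equal as rounded. Of 13 reactive astrocyte genes, 11 had a lower mean. Serpina3n, a serine protease inhibitor, measured 8.81, 9.11, 9.34 and 8.94 in ASO-NSC 73 and 75 and WT-NSC 70 and 74, against 9.53, 9.61, 9.98, 9.20 and 9.99 in ASO-NSC 56, 57 and 59 and WT-NSC 54 and 58. Its difference was -0.61 ± 0.17 (SE), and the only litter 6 mouse inside the litter 4 range was WT-NSC 54. Gfap, the intermediate filament of astrocytes, differed by -0.34, whereas Tnc, which encodes the matrix protein tenascin C, was higher in every litter 4 mouse (0.30).

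Myelin and oligodendrocyte genes were lower on average in litter 4 in all 14 measured members. The median was -0.18, and 4 had an unadjusted p under 0.05, beside 3.84% of all rows. Mog, a myelin surface glycoprotein, measured 9.58, 9.68, 9.88 and 9.70 in litter 4 and 10.08, 10.04, 10.06, 9.79 and 10.20 in litter 6 (-0.33 ± 0.093, SE; adjusted p = 0.641). As with Serpina3n, WT-NSC 54 was the litter 6 mouse that fell inside the litter 4 range. Ugt8a, which makes the galactolipids of myelin, had no overlap, with a difference of -0.25. The medians without WT-NSC 54 were -0.27 for myelin, -0.24 for activated microglia and -0.13 for astrocyte identity, and with the sex shown by the genes as a covariate they were 0.13, 0.06 and -0.01. The medians of reactive astrocyte, MHC class II and complement genes were 0.13, 0.03 and 0.15 with that covariate, so all of these lists but astrocyte identity changed sign. As for the interferon-induced genes, the litter contrast with that covariate rests on WT-NSC 54 for every list. Without WT-NSC 58 the medians were -0.10 for myelin and -0.12 for activated microglia.

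**Figure D4:**
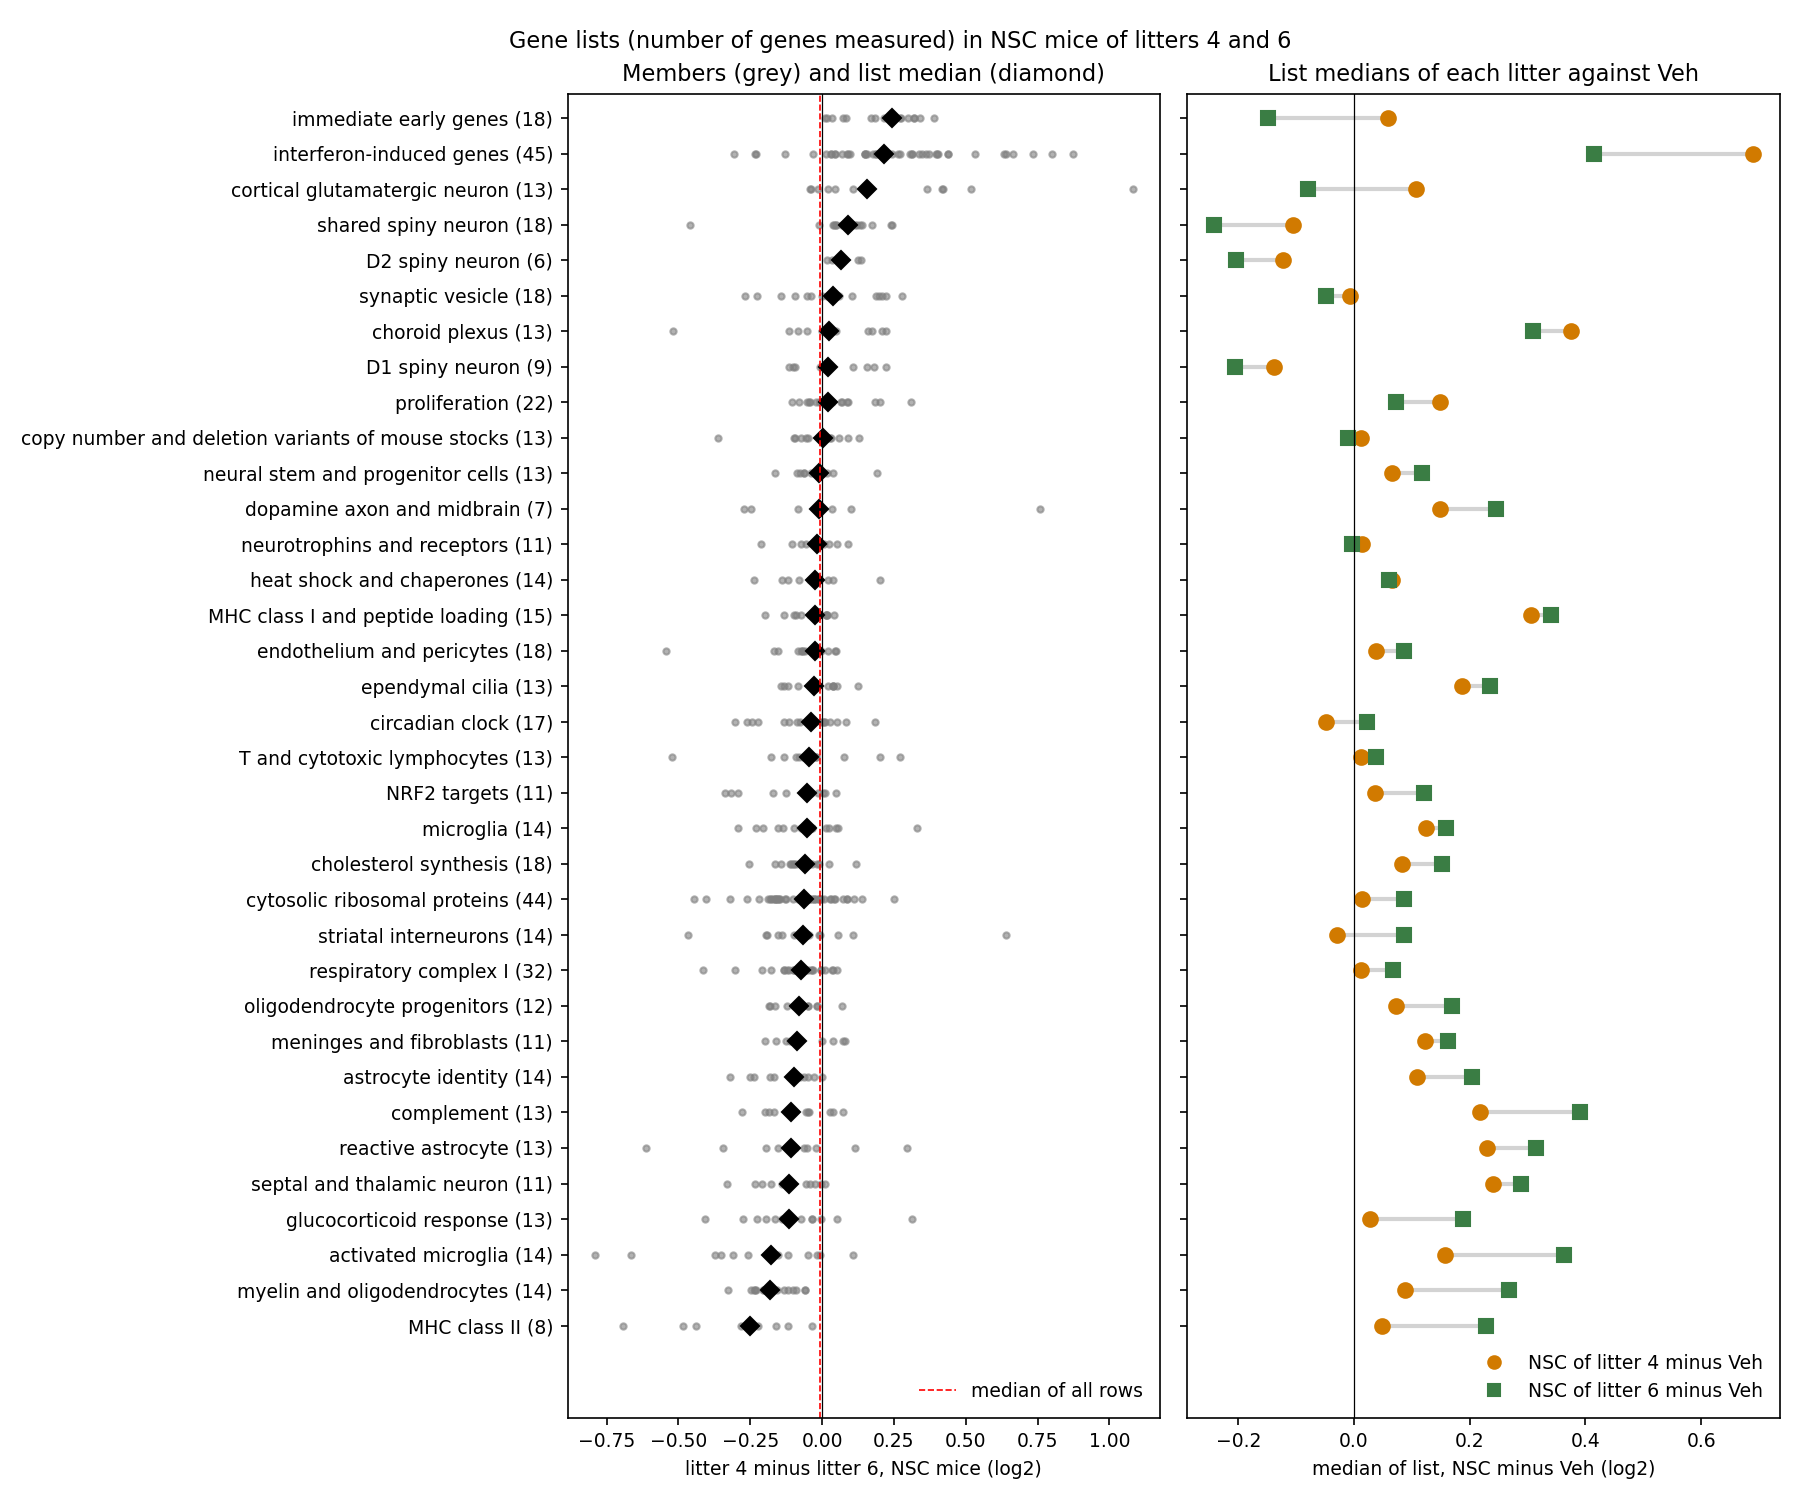
Left, litter 4 minus litter 6 log2 differences of the members of each gene list (points) with the list median; right, list medians of NSC litter 4 minus Veh and NSC litter 6 minus Veh. Interferon-induced and immediate early genes have the most positive medians on the left (0.22 and 0.24), and MHC class II, activated microglia and myelin genes the most negative (-0.25, -0.18 and -0.18).

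Immediate early genes, which neurons transcribe within minutes of activity, had a higher mean in litter 4 in all 18 measured members. The median was 0.24, and 4 had an unadjusted p under 0.05, beside 3.46% of all rows. By genotype the median was 0.32 in ASO-NSC and 0.06 in WT-NSC mice. With the sex shown by the genes as a covariate it was 0.11, where the litter contrast rests on WT-NSC 54. Arc, a synaptic plasticity gene, was at 9.69, 9.82, 9.79 and 9.96 in litter 4, against 9.15, 9.52, 9.07, 9.82 and 9.73 in litter 6. The 3 ASO-NSC mice of litter 6 were the low ones, and the 2 WT-NSC mice of litter 6 lay within the litter 4 range. Its difference was 0.32 ± 0.11 (SE; adjusted p = 0.641), with 0.51 in ASO-NSC and 0.10 in WT-NSC mice. The zinc finger transcription factor genes Egr1 and Egr2 differed by 0.32 and 0.27. No member was called against Veh in either litter, and the list mean was 8.33 ± 0.14 in litter 4 (SD, n = 4), 8.10 ± 0.23 in litter 6 (SD, n = 5) and 8.25 ± 0.18 in Veh mice (SD, n = 10).

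Of 13 measured cortical glutamatergic neuron genes, 3 were higher in litter 4 at an unadjusted p under 0.05 (3.46% of all rows). The list median was 0.16, and it was 0.07 without WT-NSC 58 and 0.07 with the sex covariate. Slc17a7, the vesicular glutamate transporter of cortical neurons, was at 9.35, 9.71, 10.52 and 10.26 in litter 4 and at 8.66, 9.0, 8.72, 9.58 and 8.20 in litter 6, with 1 litter 6 mouse, WT-NSC 54, inside the litter 4 range. The difference was 1.08 ± 0.26 (SE; adjusted p = 0.61), and the Veh mice spanned 7.24 to 10.63, wider than both litters together. Tbr1, a transcription factor of deep cortical layers, differed by 0.52 and Neurod2 by 0.42. Vip, an interneuron neuropeptide, was in the list of striatal interneuron genes and differed by 0.64, the highest value of that list. Of the 14 genes in it, 11 had a lower mean in litter 4 (median -0.07). The cortical glutamatergic neuron genes are markers of cortex, which adjoins the striatum. The amount of adjoining tissue in each sample was not measured, and the source of these transcripts was not tested. Genes shared by striatal spiny neurons had a median of 0.09, which was 0.01 without ASO-NSC 59 and -0.14 with the sex covariate, where those of D1 and D2 spiny neurons were -0.22 and -0.19.

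Smaller shifts were spread over housekeeping groups. Of 44 cytosolic ribosomal protein genes, 33 had a lower mean in litter 4 (median -0.06). At an unadjusted p under 0.05, 8 were lower (3.84% of all rows) and 0 higher. Rpl30, a large subunit protein, did not overlap between the litters, at 6.35, 6.22, 6.13 and 6.32 in litter 4 and 6.48, 7.01, 6.64, 7.0 and 6.38 in litter 6 (-0.44). Respiratory complex I genes were lower on average in 28 of 32 (median -0.07), among them Ndufa8 at -0.41, also without overlap. Of 13 glucocorticoid response genes, 11 had a lower mean, with Zbtb16, a transcription factor that glucocorticoids induce, at 8.05, 7.76, 7.99 and 7.86 in litter 4 and 8.33, 8.47, 8.50, 8.23 and 8.14 in litter 6 (-0.41 ± 0.087, SE; adjusted p = 0.61), while the cell cycle inhibitor gene Cdkn1a was higher in every litter 4 mouse (0.31). Clock genes had a median of -0.04 over 17, with Nr1d2, a repressor of the clock, lower in every litter 4 mouse than in every litter 6 mouse (-0.24). Neural stem and progenitor genes (median -0.01 over 13) and proliferation genes (0.02 over 22) had medians near that of all rows.

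Among the single rows with the smallest p-values, olfactory and vomeronasal receptor genes were frequent. They were 9 of the 40 rows with the smallest p, where they are 5.97% of all rows. Of those 40 rows, 10 were at or below 4.48, the highest level of Y-linked genes in the 13 arrays with the female pattern, as were 14.5% of all rows, so their values are not shown to be above background. Olfr895, an olfactory receptor gene and the row with the smallest p, measured 4.05, 3.99, 3.97 and 3.81 in litter 4 against 3.59, 3.55, 3.64, 3.11 and 3.23 in litter 6 (adjusted p = 0.416), all below that level. Rhoa, a small GTPase of the cytoskeleton, was at 7.49, 7.93, 8.34 and 7.82 in litter 4 and at 8.48, 8.50, 8.53, 8.42 and 8.65 in litter 6 (-0.64 ± 0.13, SE), and Ccn2, a matricellular growth factor gene, at 7.63, 7.89, 8.09 and 7.99 in litter 4 and 7.31, 7.29, 7.61, 7.50 and 7.38 in litter 6 (0.47 ± 0.094, SE). Rhoa and Ccn2 separated the litters completely, and neither passed the adjusted threshold.

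Set against the Veh mice, the 2 litters gave very different numbers of calls. In the 4 NSC mice of litter 4, 40 rows rose (0.17% of rows) and 0 fell (0%). In the 5 NSC mice of litter 6, 901 rows rose (3.83%) and 274 fell (1.16%). The interferon-induced genes did not follow these totals, since 21 of the 45 rose in litter 4 with a median of 0.69 log2 units and 22 of the 45 rose in litter 6 with a median of 0.41. Both sets of values share the same 10 Veh arrays, so they are not independent. The direct comparison of the 2 litters is the one given above.

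Usp18 rose by 1.54 log2 units in litter 4 (adjusted p = 0.00016) and by 0.72 in litter 6 (adjusted p = 0.0192), and Cxcl10 by 1.43 and 0.80 (adjusted p = 0.000106 and 0.0114). Irf7 rose in litter 4 (0.84, adjusted p = 0.00555), with 0.18 in litter 6 (adjusted p = 0.365). Igtp had similar values in both litters, 1.13 in litter 4 with an adjusted p of 0.261 and 1.39 in litter 6 with 0.0169. The spread within litter 6 was the larger one in this gene, 1.02 against 0.52 in litter 4 (SD).

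More glial genes passed the threshold in litter 6 than in litter 4, but with the sex shown by the genes as a covariate this was no longer so. Of the 14 activated microglia genes 0 rose in litter 4 and 9 in litter 6, of 14 astrocyte identity genes 0 and 6, of 13 reactive astrocyte genes 2 and 8, of 14 myelin genes 0 and 6 and of 13 complement genes 1 and 7. Of all rows, 0.17% rose in litter 4 and 3.83% in litter 6. With the sex covariate the counts in litter 4 and litter 6 were 1 and 0 for activated microglia, 1 and 0 for astrocyte identity, 2 and 2 for reactive astrocyte, 0 and 0 for myelin and 1 and 0 for complement genes. The medians against Veh with that covariate were 0.16 in litter 4 and 0.34 in litter 6 for activated microglia. They were 0.15 and 0.16 for astrocyte identity, 0.31 and 0.23 for reactive astrocyte and 0.13 and 0.18 for myelin genes. Complement genes had 0.25 and 0.33, so the litter 6 median stayed the larger one in all of these lists but reactive astrocyte. The median SE over all rows for litter 6 was 0.074 without and 0.082 with the covariate. With 1 litter 6 mouse left out in turn, the litter 6 counts were 2 to 9, 1 to 6, 4 to 7, 0 to 13 and 1 to 8 for the same lists. In the direct comparison of the litters, 0 of these genes passed the threshold in limma. Gfap rose in both, by 0.64 in litter 4 (adjusted p = 0.0437) and by 0.99 in litter 6 (adjusted p = 0.00198). Serpina3n rose by 1.09 in litter 6 (adjusted p = 0.00321), and its value in litter 4 was 0.47 (adjusted p = 0.372). C4b rose by 0.86 in litter 4 and by 0.89 in litter 6 (adjusted p = 0.0143 and 0.00741). Vav1, a signalling protein of blood cells, rose by 0.36 and 0.35 (adjusted p = 0.00475 and 0.00445), so some immune genes had nearly equal values in the 2 litters.

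The count for litter 6 depended on which mice and which covariate were used. It was 88 without WT-NSC 58 and 2048 without WT-NSC 54, and with the sex shown by the genes as a covariate it was 4 (Igfbp5, Gfap, Serpina3n and Vmn2r70), with 0 of 45 interferon-induced genes called. The interferon-induced median of litter 6 against Veh was 0.37 with that covariate and 0.41 without it. The count for litter 4 was 11 without ASO-NSC 75, 74 without WT-NSC 58 and 59 with the sex covariate, 38 of them shared with the 40, and 21 of the 45 interferon-induced genes were then called as before. With 1 mouse of the same litter left out in turn, 7 to 20 of the 45 interferon-induced genes were called in litter 4 and 3 to 27 in litter 6. Among the Veh arrays 7 had the female pattern and 3 the male pattern. Without the 5 arrays whose sex genes went against the label, the counts were 16 for litter 4 and 1355 for litter 6.

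**Figure D5:**
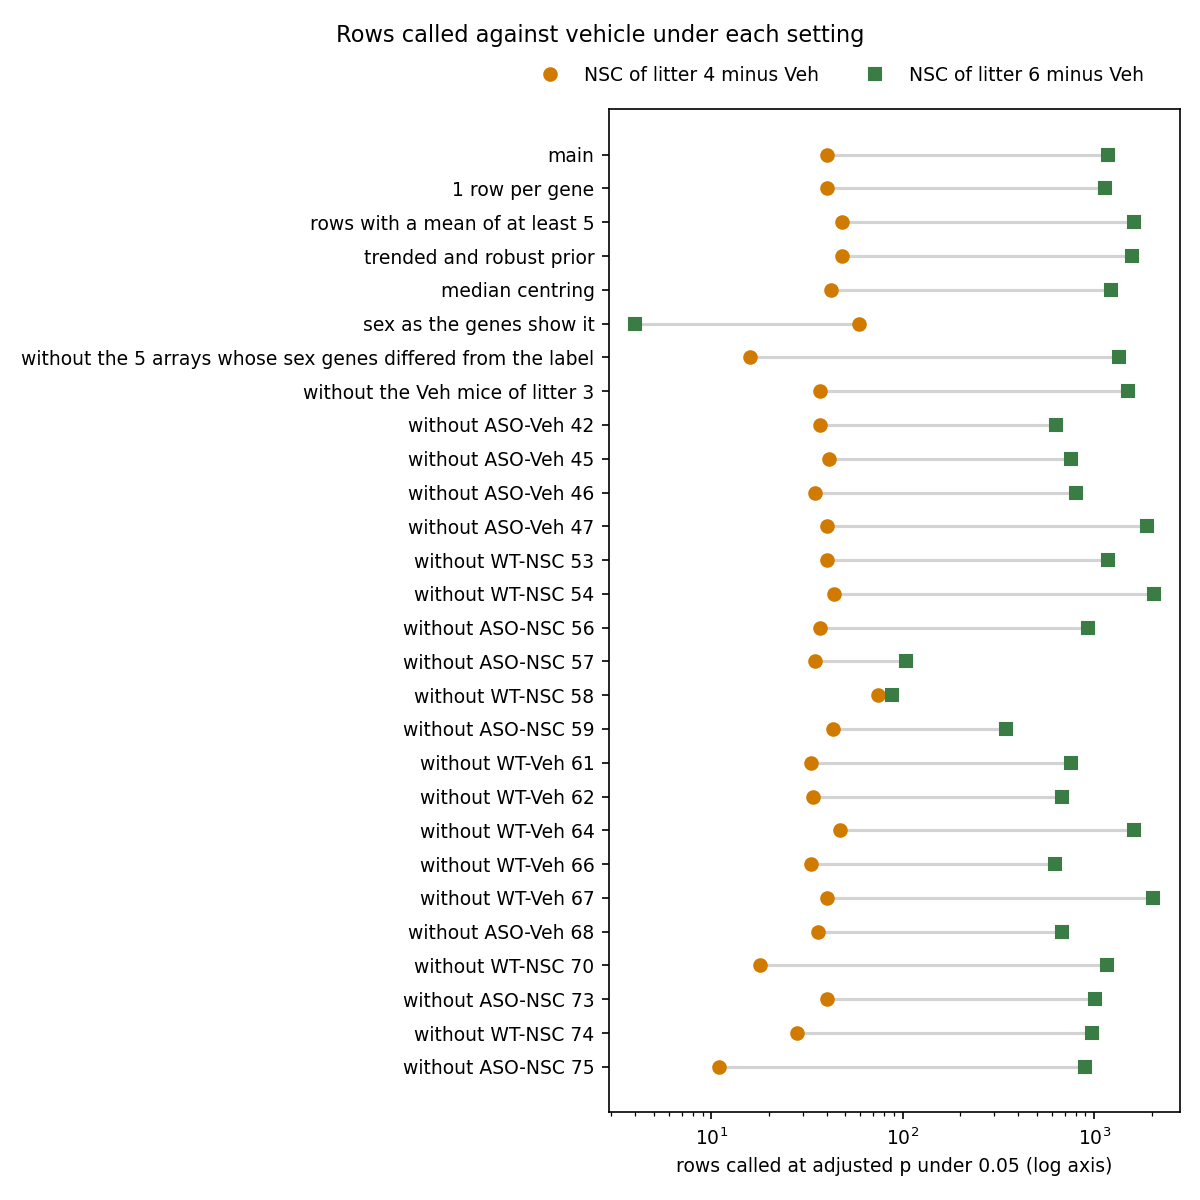
Number of rows called against Veh (log axis) for NSC litter 4 and NSC litter 6 under each setting, among them the leaving out of single mice. The main counts are 40 for litter 4 and 1175 for litter 6; the counts range from 11 to 74 for litter 4 and from 88 to 2048 for litter 6 over single mice left out.

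Arrays that a split did not use were then placed relative to it. Because 0 rows were called, the rows taken were those without overlap between the litters after the mouse in question was set aside, with X and Y rows left out. WT-NSC 54 was nearer to the litter 4 mean than to the litter 6 mean in 1022 of 1453 such rows (70.3%), although it is labelled litter 6. The other litter 6 mice were nearer to litter 4 in 32.5% to 50.5% of their rows. Of the litter 4 mice, WT-NSC 70 was nearer to litter 4 in 30.1% of 1586 rows, and the other 3 in 53.4% to 65.5%, so leaving out a single mouse of either litter left rows that did not place all mice by litter. WT-NSC 53 of litter 3 lay nearer litter 4 in 327 of 525 rows (62.3%), and the Veh mice in 42.9% to 74.1%. The mean correlation of array profiles was 0.995 within litter 4, 0.993 within litter 6 and 0.994 between the litters.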

How the data were processed

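Total RNA of microdissected striatum from 20 mice was hybridised by the authors, 1 mouse per array, and the deposited table holds log2 values that the authors obtained by RMA in the oligo package per the labels (background correction, quantile normalization and probe summary per transcript cluster). RMA sets all arrays to 1 distribution, so a shift common to all genes cannot be seen, and low signals are compressed, which makes small the differences of dim rows. Of 41345 rows, 23521 with exactly 1 gene symbol in the platform annotation (22180 genes) were tested, 1820 with several symbols and 16004 with none were left out, and no low-level filter was applied. The array median over these rows was 6.72 to 6.83. Arrays give no read depth, so precision is limited by the number of mice.

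Groups, litters and mouse numbers came from the sample labels. The litter contrast was fitted with limma (version 3.58.1, R 4.3.3; lmFit and eBayes) on the 9 NSC arrays with genotype as covariate, and p-values were two-sided and Benjamini-Hochberg adjusted over all 23521 rows with a threshold of 0.05. Differences are litter 4 minus litter 6, with SE and 95% confidence intervals from the same fit. NSC mice of each litter were set against all 10 Veh mice in 1 fit over 20 arrays with genotype as covariate. A gene with several rows was represented in a list by its row with the highest interquartile range. The scripts were tested on simulated data. The members and the 38 gene lists (568 of 650 genes measured) were chosen with earlier results of these data known. Named genes were the 10 rows of smallest p in each direction, sex genes, and up to 4 list members with the largest moderated statistic; Ifit1, Cxcl10, Ddx58, Ifih1, Irf9, Oas2, Oasl2, Mx2, Isg20, Igtp, Irgm2, Iigp1, C4b, Vav1, Cd3g and Rarres1 were named after their values were seen. Of those lists, the blood list had 1 measured gene and was not read. Alternatives were other filters, scalings, priors, array weights, covariates, single genotypes and each mouse left out. Figures were drawn in Python 3.11.15 with matplotlib 3.10.9.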

Additional observations from a re-analysis of the deposited data

Results flagged for a closer look

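Of 204 groups of values screened for a single sample far from the others of its group, 15 were flagged, where chance alone flags about 1 in 20 groups. In litter 6, WT-NSC 54 stood apart in its sex genes, at 11.9 for Xist, 4.13 for Kdm5d, 3.57 for Uty and 3.66 for Eif2s3y, and in the means of the Y list (4.20) and the X inactivation and escape list (8.72), against 5.37 to 6.10 for Xist and 6.39 to 6.58 for the Y list in the other 4 mice. WT-NSC 58 stood apart in the mean of MHC class I and peptide loading genes (8.28, against 7.59 to 7.75) and in Tmem88b (6.99, against 6.78 to 6.84).

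ASO-NSC 57 stood apart among the litter 6 mice in Vmn2r5 (2.57), 4932441J04Rik (5.58) and the mean of neural stem and progenitor genes (8.37, against 8.28 to 8.29), and ASO-NSC 59 in the mean of neurotrophin and receptor genes (7.90, against 7.78 to 7.80). In litter 4, ASO-NSC 73 stood apart in Chka (5.75, against 5.43 to 5.46). Among the 10 Veh mice, WT-Veh 62 had the highest means of immediate early genes (8.65, next highest 8.33) and of synaptic vesicle genes (10.25, against 10.01 to 10.13).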

How the results depend on the processing

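The litter comparison gave 0 called rows under every filter, scaling, prior and covariate tried, 4 with the ASO-NSC mice alone, and 0 to 4 over the 9 mice left out in turn (4 without WT-NSC 54, all sex genes). With the ASO-NSC mice alone, 1 of the 4 rows was higher and 3 were lower in litter 4. There every litter 4 mouse had the female pattern of sex genes and every litter 6 mouse the male one. Leaving out single mice gave 0 to 1 for genotype, 0 to 4 for the difference between genotypes, 0 to 0 for Veh litter 1 against litter 5, 11 to 74 for NSC of litter 4 against Veh (main 40), 88 to 2048 for NSC of litter 6 against Veh (main 1175), and 0.04 to 0.14 for the RNA integrity difference. Without the 5 arrays whose sex genes went against the label, an alternative added after seeing the data, litter 4 against Veh had 16 calls, and with the sex covariate, also added, litter 6 against Veh had 4. The remaining settings gave 37 to 59 and 1141 to 1614. For litter 6, 104 rows were called without ASO-NSC 57, 345 without ASO-NSC 59, 2035 without WT-Veh 67 and 1890 without ASO-Veh 47, and 758 or fewer without ASO-Veh 42, 45 or 68 or WT-Veh 61, 62 or 66, and for litter 4, 18 were called without WT-NSC 70. The causes were not tested.

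Signs changed for several genes, and not only for those with differences near 0. Uty and Eif2s3y, Y-linked genes that were far lower in litter 4 on average, changed sign with the sex covariate. With that covariate the litter contrast rests on the female-pattern mouse of litter 6. With the sex covariate, litter 4 minus litter 6 was 0.35 for C4b, 0.77 for Igtp, 0.72 for Irgm2, 0.96 for Iigp1, 0.024 for Uty and 0.51 for Eif2s3y. In ASO-NSC mice alone it was 0.085, 0.039, 0.021 and 0.081 for C4b, Igtp, Irgm2 and Iigp1. Over single mice left out, C4b ranged from -0.18 to 0.13, Igtp from -0.62 to 0.16, Irgm2 from -0.51 to 0.16 and Iigp1 from -0.58 to 0.25, each highest without WT-NSC 58. Of 877 single-gene values under alternatives, 854 kept their sign and side of the threshold and 15 reversed. Of 742 list medians, 30 moved by more than the spread within litters.

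The contrast rests on 4 and 5 mice that differ in labelled sex throughout, and no Veh mouse shares their litters. Dim rows, such as the receptor genes, have the least signal over background. No paired analysis was possible because each mouse number in the labels belongs to 1 mouse and groups share none.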

Other observations

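Synaptic vesicle genes differed between the litters in both directions. At an unadjusted p under 0.05, 4 of 18 were higher and 1 lower in litter 4, beside 3.46% and 3.84% of all rows. Stx1a, a syntaxin of the release machinery, differed by 0.28 and Unc13a, which primes vesicles, by 0.21, while Vamp1, the synaptobrevin of fast-spiking neurons, differed by -0.27, and Pvalb, the calcium buffer of such neurons, by -0.47. Targets of NRF2, the transcription factor of the oxidative stress response, were lower in litter 4 at that level in 4 of 11, among them Slc7a11, the cystine transporter, at -0.34 and Gclm, a subunit of the enzyme that starts glutathione synthesis, at -0.17. Rgs5, a pericyte marker, differed by -0.54 among 18 endothelial and pericyte genes whose median was -0.03. None of these passed the adjusted threshold.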
